A study of Saccharomyces cerevisiae with 8 samples.

Results

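The HAP factors, the RNA-binding protein Puf3p and the mitochondrial transcription proteins Rpo41p and Mtf1p act in the making of respiratory machinery in yeast. The study links the repressors Sok2p and Sko1p to respiration. Deleting either gene partly rescued it in cells that lacked the phosphodiesterase Pde2p and were given cAMP. The 10 genes described here (HAP1, HAP2, HAP3, HAP4, HAP5, SOK2, SKO1, PUF3, RPO41 and MTF1) were picked by name from the annotated probe sets of an Affymetrix yeast array, on which each gene is read by a group of short probes (a probe set). All 10 were found, each with 1 probe set, among 5449 genes measured. The study asked how the cAMP/PKA pathway acts on mitochondria through transcription, and it raised cAMP in cells that could not break it down efficiently. The choice of genes follows the study's own discussion of Hap4p, Sok2p, Sko1p and Puf3p. PUF3 is on the study's list of changed genes from the same arrays, so its direction here is not independent evidence.

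The arrays came from 3 strains of the BY4741 background. Wild type cells were measured on 3 arrays, Δpde2 cells on 3 arrays and Δpde2Δtpk3 cells on 2 arrays. The Δpde2 strain lacks the high affinity phosphodiesterase that degrades cAMP, and the Δpde2Δtpk3 strain also lacks Tpk3p, a catalytic subunit of protein kinase A (PKA). All of them, wild type included, are labelled as grown with 4 mM cAMP added. For the mutants the study describes growth for 24 h to the diauxic shift in YPD, a rich glucose medium. It does not give the medium and growth stage of the wild type cultures used for the arrays. There is no array without added cAMP here, so an effect of cAMP itself cannot be told apart from what the 3 strains share. PDE2 was replaced by KanMx in Δpde2 cells, while Δpde2Δtpk3 cells carry HIS3 at PDE2 and KanMx at TPK3. The loss of TPK3, the markers and the origin of the strain therefore cannot be told apart between the mutants. The methods describe triplicate cultures of the mutants and do not say how the wild type cultures were made, so the spread between wild type arrays may be technical.

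The CCAAT-binding complex is the main activator of respiratory genes in budding yeast. Hap2p, Hap3p and Hap5p together recognise CCAAT boxes, and Hap4p, which binds them and not DNA, brings the activation domain and is the subunit whose amount is controlled by the carbon source. Hap1p is a separate haem-responsive activator, and in S288C-derived strains such as BY4741 its gene carries a Ty1 insertion that weakens the protein. Rpo41p, the RNA polymerase of mitochondria, works with the specificity factor Mtf1p, while Puf3p binds mRNAs of nuclear genes for mitochondrial proteins and promotes their decay in glucose. Sok2p is a transcription factor that acts in PKA signaling, and Sko1p is a bZIP repressor that answers to both the Hog1p kinase and PKA.

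A gene is called changed below where its p-value from limma, adjusted by the Benjamini-Hochberg method over all 5449 genes, was under 0.05. Levels are log2 signals after quantile normalization and are compared only within a gene. As a check of the labels, PDE2 signal was 3.64% of the wild type level in Δpde2 and 3.57% in Δpde2Δtpk3 cells, and TPK3 signal was 97.8% and 6.15% of it. The fall of PDE2 in Δpde2Δtpk3 cells (adjusted p = 0.00412) missed the threshold without replicate 2 of that strain (0.09). Wild type replicate 1 stood apart, with correlations of 0.868 and 0.878 with the other wild type arrays against 0.992 between those, and within the mutants 0.977 to 0.995 (all across genes, which are not independent replicates). Calls of the 10 genes that changed without it are given below, as are the list counts without it. Precision is limited by the few arrays per strain, and in bulk RNA fewer cells with a transcript and less transcript per cell cannot be told apart.

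Against wild type, 4 of the 10 genes were called in Δpde2 cells. PUF3 and SOK2 were higher, RPO41 and HAP1 were lower. Over all genes, 41.4% were called in this comparison (19.5% higher and 21.9% lower), so 4 of 10 is close to the background. The arrays of both strains did not overlap for 5 of the 10 genes (the 4 called and HAP3), beside 62.0% of all genes. Between Δpde2 and Δpde2Δtpk3 cells 3 were called, again PUF3 and SOK2 higher and RPO41 lower in Δpde2, against 13.0% of all genes (5.56% higher and 7.41% lower). In Δpde2Δtpk3 cells none of the 10 was called against wild type by limma, none reached an unadjusted p under 0.05, and 2.72% of all genes were called (1.03% higher and 1.69% lower). The median absolute log2 fold change of the 10 genes was 0.25 in Δpde2 against wild type and 0.36 between the mutants, beside 0.50 and 0.32 over all genes. These comparisons share arrays, since the same Δpde2 arrays enter the first and second and the same wild type arrays the first and the last.

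**Figure D1:**
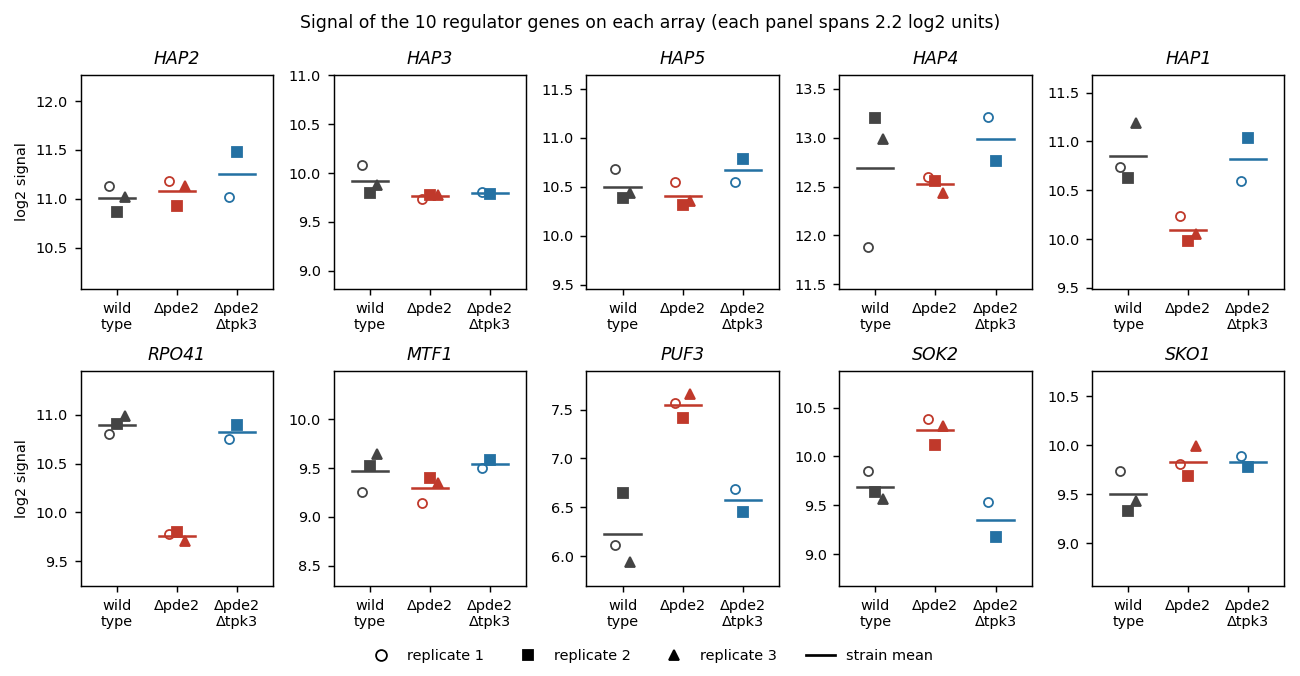
Normalized log2 signal of each of the 10 genes (vertical axis, 1 panel per gene) on every array, by strain, with replicates as symbols and strain means as bars. RPO41 lies between 9.71 and 9.80 in Δpde2 cells and between 10.75 and 10.99 in the others, PUF3 and SOK2 are highest in Δpde2 cells, and the HAP4 value of wild type replicate 1 (11.88) is the lowest of its panel.

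RPO41 (YFL036W), which encodes the mitochondrial RNA polymerase, was the most clearly changed of the group. Its log2 signal was 10.80, 10.90 and 10.99 on the wild type arrays, 9.78, 9.80 and 9.71 on the Δpde2 arrays and 10.75 and 10.89 on the Δpde2Δtpk3 arrays. Every Δpde2 array lay below every array of the other strains, and wild type and Δpde2Δtpk3 arrays overlapped. The level in Δpde2 cells was 45.6% of wild type (log2 fold change -1.13, SE 0.10, adjusted p = 0.000478) and 48.1% of that in Δpde2Δtpk3 cells (-1.06, SE 0.12, adjusted p = 0.00659). In Δpde2Δtpk3 cells it was at 94.8% of wild type (log2 fold change -0.08, SE 0.12, adjusted p = 0.717), and the 95% interval of that difference allowed a change of at most 1.28 fold. Only 2.64% of all genes had a lower log2 fold change between the mutants, and 7.49% in Δpde2 against wild type. No single array carried these calls, since they held with each left out in turn (highest adjusted p 0.00498 against wild type and 0.0479 between the mutants).

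MTF1 (YMR228W), the factor with which Rpo41p recognises promoters, did not pass in any comparison under the reported settings. Its signal was 9.26, 9.52 and 9.65 in wild type, 9.14, 9.40 and 9.34 in Δpde2 and 9.50 and 9.58 in Δpde2Δtpk3 cells. The Δpde2 arrays overlapped those of wild type and lay below both Δpde2Δtpk3 arrays. The log2 fold change of Δpde2 cells was -0.18 against wild type (SE 0.14, adjusted p = 0.318) and -0.25 against Δpde2Δtpk3 cells (SE 0.15, adjusted p = 0.337), with 95% intervals reaching at most 1.42 and 1.53 fold. Whether RPO41 and MTF1 differ in their response was not tested. Without wild type replicate 1, MTF1 was called lower in Δpde2 cells than in the wild type (log2 fold change -0.29, adjusted p = 0.0452), as it was with all arrays when they were weighted by their quality (-0.34, adjusted p = 0.00711). The weights come from these same arrays, of which wild type replicate 1 had the largest residual spread (SD 0.604). Weighting, here and for SKO1 and HAP4 below, is therefore not separate from leaving that array out.

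PUF3 (YLL013C) showed the largest log2 fold change of the 10 genes against wild type, but at a low signal. Its mean over all arrays (6.81) was among the lowest 4.13% of genes. The size of that fold change depended on the processing, with 1.75 under median centring and 1.80 on the deposited values. Its signal was 6.11, 6.65 and 5.94 in wild type, 7.56, 7.41 and 7.66 in Δpde2 and 6.69 and 6.45 in Δpde2Δtpk3 cells. All 3 Δpde2 arrays lay above all others, while wild type and Δpde2Δtpk3 arrays overlapped. In Δpde2 cells PUF3 was 2.48 fold higher than in wild type (log2 fold change 1.31, SE 0.20, adjusted p = 0.0024) and 1.96 fold higher than in Δpde2Δtpk3 cells (0.97, SE 0.22, adjusted p = 0.0335). In Δpde2Δtpk3 cells it did not pass against wild type (0.34, SE 0.22, adjusted p = 0.421, 95% interval -0.18 to 0.86). The call against wild type stood with each array removed (highest adjusted p 0.0151). The call between the mutants was lost when any mutant array was removed. The adjusted p became 0.116, 0.0862 and 0.128 on removing Δpde2 replicates 1, 2 and 3, and 0.0903 and 0.179 on removing those of Δpde2Δtpk3. It was also lost with median centring (0.0748) or deposited values (0.0756), in which the log2 fold change was 1.19 and 1.24, and with trended and robust moderation (0.0598).

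SOK2 (YMR016C), the APSES-family transcription factor, was highest in Δpde2 and lowest in Δpde2Δtpk3 cells. The signal was 9.86, 9.64 and 9.56 in wild type, 10.38, 10.11 and 10.31 in Δpde2 and 9.53 and 9.17 in Δpde2Δtpk3 cells, and no array of any strain overlapped those of another. SOK2 was 1.89 fold higher in Δpde2 than in Δpde2Δtpk3 cells (log2 fold change 0.92, SE 0.17, adjusted p = 0.0183) and 1.50 fold higher than in wild type (0.58, SE 0.15, adjusted p = 0.0182). The step from wild type down to Δpde2Δtpk3 cells did not pass (-0.33, SE 0.17, adjusted p = 0.308), although the arrays did not overlap. Non-overlap alone was common, with 36.9% of all genes in that comparison. The call against wild type was lost without wild type replicate 3 (adjusted p = 0.0582), Δpde2 replicate 1 (0.076) or Δpde2 replicate 3 (0.0704), and that between the mutants without Δpde2 replicate 1 (0.0796), 2 (0.0567) or 3 (0.0871) or Δpde2Δtpk3 replicate 2 (0.107).

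SKO1 (YNL167C), which encodes the repressor at CRE sites, had the same mean in both mutants. Its signal was 9.74, 9.33 and 9.43 in wild type, 9.80, 9.69 and 9.99 in Δpde2 and 9.89 and 9.78 in Δpde2Δtpk3 cells. Wild type replicate 1 reached into the range of the Δpde2 arrays, and the other wild type arrays lay below every mutant array. The log2 fold change was 0.33 in either mutant against wild type (SE 0.15, adjusted p = 0.111 in Δpde2, and SE 0.16, adjusted p = 0.304 in Δpde2Δtpk3 cells), and it was -0.01 between the mutants (95% interval -0.39 to 0.38). SKO1 thus did not pass in any comparison under the reported settings. With all arrays it was called higher in Δpde2 cells against wild type on the deposited values (0.40, adjusted p = 0.0326) and with array weights (0.42, adjusted p = 0.00251). Without wild type replicate 1 it was called higher in both Δpde2 (0.45, adjusted p = 0.0103) and Δpde2Δtpk3 cells (0.45, adjusted p = 0.0432), where 60.8% and 17.9% of all genes were called.

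**Figure D2:**
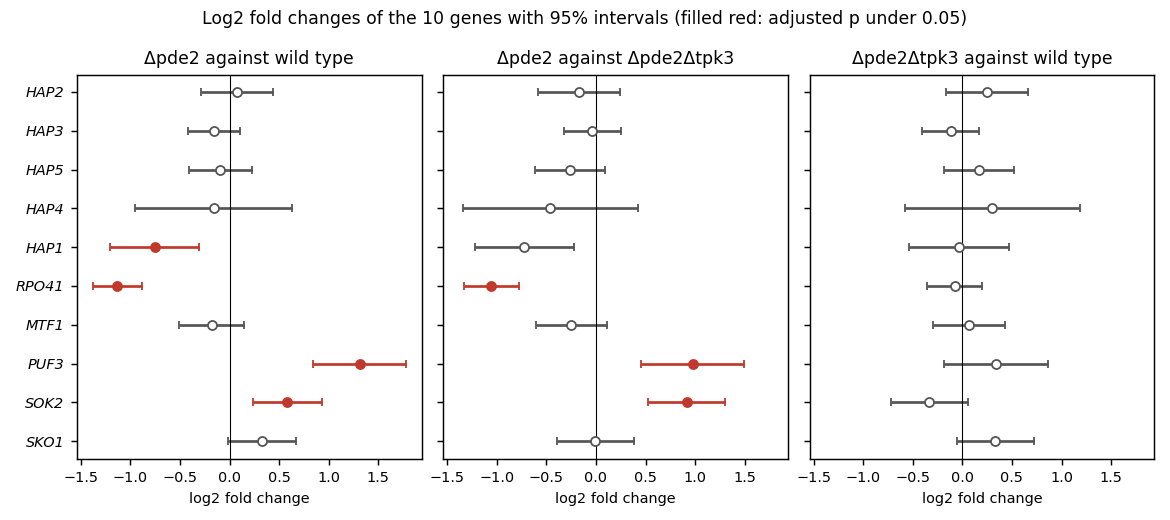
Log2 fold change (horizontal axis) of each gene in the 3 comparisons, with its 95% interval from limma's moderated statistic, not adjusted for the number of genes; filled red symbols mark an adjusted p under 0.05. The intervals of RPO41, PUF3 and SOK2 exclude 0 in the first and second panels and include it in the last, and the interval of HAP4 is the widest in each panel.

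HAP4 (YKL109W), the activating subunit, was not called in any comparison under the reported settings. Its signal was 11.88, 13.20 and 12.98 in wild type, 12.59, 12.56 and 12.43 in Δpde2 and 13.22 and 12.76 in Δpde2Δtpk3 cells. Wild type replicate 1 was lower than the mean of the other wild type arrays by 1.21 on the log2 scale and lower than every mutant array, while the other wild type arrays lay above every Δpde2 array. The Δpde2 arrays also lay below both Δpde2Δtpk3 arrays. The log2 fold change in Δpde2 cells was -0.16 against wild type (SE 0.34, adjusted p = 0.72) and -0.46 against Δpde2Δtpk3 cells (SE 0.38, adjusted p = 0.472), and in Δpde2Δtpk3 cells 0.30 against wild type (SE 0.38, adjusted p = 0.653). The 95% intervals reached 1.93, 2.54 and 2.28 fold, so changes of up to that size remain possible within these arrays' error.

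The HAP4 result depended on wild type replicate 1 and on the fit. With all 8 arrays weighted by their quality HAP4 was called lower in Δpde2 cells against wild type (log2 fold change -0.48, adjusted p = 0.00277), and with only the arrays of both mutants in the fit it was called between them (adjusted p = 0.0493). Without that array HAP4 was called lower in Δpde2 cells than in the wild type (log2 fold change -0.56, adjusted p = 0.0124, with 60.8% of all genes called) and than in Δpde2Δtpk3 cells (-0.46, adjusted p = 0.0376, with 44.6% of all genes called). The second value is the same fold change as with all arrays, because the strain means of the mutants do not use the wild type arrays, and what altered is the estimate of spread. Between Δpde2Δtpk3 and wild type cells the direction turned to -0.10 (adjusted p = 0.697). Without wild type replicate 2 the fold change in Δpde2 against wild type turned to 0.10 (adjusted p = 0.825).

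The DNA-binding subunits HAP2 (YGL237C), HAP3 (YBL021C) and HAP5 (YOR358W) showed small differences. HAP3 ran from 9.73 to 10.08 over all 8 arrays, HAP5 from 10.31 to 10.79 and HAP2 from 10.86 to 11.48. None of the 3 genes was called in any comparison under the reported settings. In Δpde2 against wild type cells the log2 fold changes were 0.08 for HAP2, -0.16 for HAP3 and -0.10 for HAP5 (adjusted p of 0.717, 0.284 and 0.588). The 95% intervals of these differences reached at most 1.36, 1.33 and 1.33 fold. Between the mutants the log2 fold changes were -0.17, -0.04 and -0.26 (adjusted p of 0.575, 0.89 and 0.294), with intervals that reached 1.50, 1.25 and 1.54 fold.

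Some subunits had separate array ranges without passing. HAP5 and HAP3 lay lower on each Δpde2 array than on either Δpde2Δtpk3 array, as HAP4, HAP1, RPO41 and MTF1 did, and with SOK2 and PUF3 above them 8 of the 10 genes did not overlap between the mutants. This is a weak criterion, met by 64.6% of all genes in that comparison.

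HAP5 lies near PDE2, with VTS1 between them, so the genes around the deletion were also read. A gene that is not called does not show that the deletion left it unaffected. HAP5 and VTS1 were not called in any comparison, and neither were PRT1 and PRE10 on the other side of PDE2. VTS1, whose RNA-binding product promotes mRNA decay, had a log2 fold change of -0.04 in Δpde2 (SE 0.38, adjusted p = 0.947) and -0.27 in Δpde2Δtpk3 cells (SE 0.42, adjusted p = 0.718) against wild type. On the far side of HAP5, SNX3, a sorting nexin, was called higher in Δpde2 cells than in the wild type (0.44, adjusted p = 0.0328) and CIR2 lower (-0.82, adjusted p = 0.00133). CIR2 was also lower in Δpde2 than in Δpde2Δtpk3 cells (-0.51, adjusted p = 0.0348).

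HAP1 (YLR256W), the haem-responsive zinc cluster activator, was lower in Δpde2 cells. Its signal was 10.74, 10.62 and 11.19 in wild type, 10.24, 9.98 and 10.06 in Δpde2 and 10.60 and 11.03 in Δpde2Δtpk3 cells. Each Δpde2 array lay below each array of the other strains, which overlapped. The level in Δpde2 cells was 59.2% of wild type (log2 fold change -0.76, SE 0.19, adjusted p = 0.0179) and 60.6% of Δpde2Δtpk3 cells, where it did not pass (-0.72, SE 0.21, adjusted p = 0.071). In Δpde2Δtpk3 cells HAP1 was at 97.6% of wild type (adjusted p = 0.935). The call against wild type was lost without Δpde2 replicate 2 (adjusted p = 0.0686) or replicate 3 (0.0653), and without wild type replicate 1 the comparison between the mutants passed (0.0207), as it did with only the arrays of both mutants (0.0138), with array weights (0.0461) and with genes of low signal left out (0.047).

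**Figure D3:**
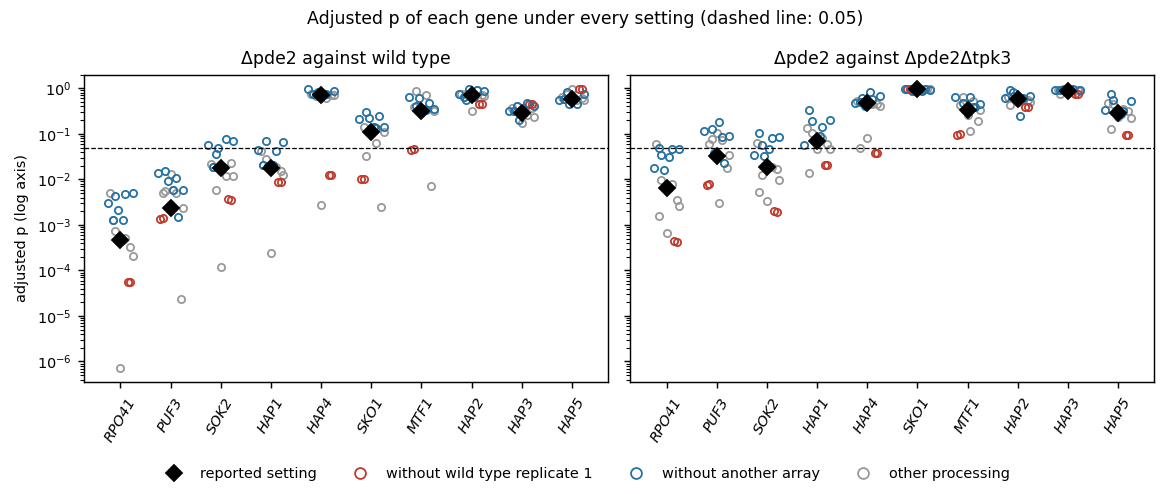
Adjusted p (vertical axis, log scale) of each gene in Δpde2 against wild type (left) and against Δpde2Δtpk3 cells (right) under every setting, with the 0.05 threshold dashed. Diamonds are the reported values, red circles the settings without wild type replicate 1, blue circles those without another array and grey circles other processing; RPO41 exceeds the threshold only in 1 setting on the right (0.0599), and HAP4, SKO1 and MTF1 cross it on the left when wild type replicate 1 is left out.

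The order of the 3 strains differed among the genes. RPO41 and HAP1 had wild type and Δpde2Δtpk3 means within 0.08 and 0.03 of each other and a Δpde2 mean lower by 1.06 and 0.72, and only the step to Δpde2 passed for RPO41, while for HAP1 the step to wild type alone passed. For PUF3 the order was Δpde2, Δpde2Δtpk3 and wild type, with steps of 0.97, which passed, and 0.34, which did not. SOK2 had its lowest mean in Δpde2Δtpk3 cells. The means of the other 6 genes spanned 0.16 (HAP3) to 0.46 (HAP4), and no step among them passed under the reported settings.

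The genes whose 8 values, each less its own mean, lay nearest to those of a called gene were found by root mean square (RMS) difference. Nearest to RPO41 were YGP1, a cell wall-related secretory glycoprotein gene (RMS difference 0.0672), PMP1, a small regulator of the plasma membrane proton ATPase (0.0972), and MUB1 (0.111), beside a median of 0.627 over all genes. YGP1 was lower in Δpde2 cells by 1.21 against wild type and by 1.17 against Δpde2Δtpk3 cells on the log2 scale. Such values, and distances far below the median, follow from how the nearest genes were picked. Shared regulation was not tested. Nearest to PUF3 were VPS5 (0.162), MET31 (0.18), a regulator of sulphur amino acid genes, and AFT2 (0.181), an iron-responsive activator. SOK2 was nearest to DEP1 (0.0963), BOL2 (0.108) and MKK1 (0.115), a kinase of the cell wall integrity pathway. HAP1 was nearest to MOT1 (0.102), a regulator of TATA-binding protein, ECM30 (0.111) and BNI1 (0.119), a formin.

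Many known targets of the HAP complex were lower in Δpde2 cells. Among 28 such respiratory genes, 18 fell in Δpde2 against wild type cells, 10 missed the threshold and none rose, with a median log2 fold change of -0.68 beside 0.03 over all genes. The most changed were KGD1 of the α-ketoglutarate dehydrogenase complex (-1.51, adjusted p = 0.000495), SDH2 of succinate dehydrogenase (-1.40, adjusted p = 0.000391), COX4 of cytochrome c oxidase (-1.25, adjusted p = 0.00135) and CYT1, cytochrome c1 (-1.22, adjusted p = 0.00139). Between the mutants 14 were lower and none was higher (median -0.59), and none of the 28 passed in Δpde2Δtpk3 against wild type cells (median -0.04). The study discusses several of these genes from the same arrays, so the counts are not independent evidence. Wild type replicate 1 was below the other wild type arrays in 24 of the 28 genes, with a median difference of -0.32 beside 0.12 over all genes. Whether this moved the counts was not tested beyond removing the array. Of all genes, 41.4% were called in Δpde2 against wild type, 13.0% between the mutants and 2.72% in Δpde2Δtpk3 against wild type. The shares called lower were 21.9%, 7.41% and 1.69%, and all these shares apply to the lists below as well. Without wild type replicate 1 the shares called in either direction became 60.8%, 44.6% and 17.9%. Of the 5449 genes 1602, 1133 and 495 were then lower and 1711, 1298 and 478 higher, which also applies to the lists below. Without that array 26 of the 28 were lower in Δpde2 against wild type, 20 between the mutants and 2 in Δpde2Δtpk3 against wild type. Leaving out any Δpde2 array left 1 to 6 of the 28 lower between the mutants, beside 38 to 91 of the 5449 genes. Leaving out a Δpde2Δtpk3 array, which keeps 1 array of that strain, also left fewer.

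Genes regulated by Hap1p, haem or oxygen moved in both directions. Of 15, 4 were higher and 8 lower in Δpde2 cells than in the wild type, beside 19.5% and 21.9% of all genes. The list counts were the same without wild type replicate 1, where 60.8% of all genes were called. AAC3 (log2 fold change 3.07, adjusted p = 0.00065), an ADP/ATP carrier, ANB1 (2.95, adjusted p = 0.00281), the hypoxic translation factor, HEM13 and COX5B rose, and these belong to the hypoxic class repressed by Rox1p in air. HMG2, another hypoxic gene of the list, was lower (-0.95, adjusted p = 0.0117). CTT1, cytosolic catalase (-2.44, adjusted p = 8.81e-05), and HMG1, an enzyme of sterol synthesis (-1.33, adjusted p = 0.0163), fell, as did ROX1 itself (-0.56, adjusted p = 0.014). Between the mutants AAC3 (1.78, adjusted p = 0.0236) and HEM13 (0.99, adjusted p = 0.019) were higher and CYB2 (-1.16, adjusted p = 0.0251), CYT1, CYC1 and CTT1 lower in Δpde2 cells. With any Δpde2 array removed 0 or 1 of the 15 was called there, beside 53 to 129 of all 5449 genes. Removing a Δpde2Δtpk3 array, which keeps 1 array of that strain, also left fewer. Without wild type replicate 1 there were 3 higher and 7 lower. In Δpde2Δtpk3 cells CTT1 (-1.71, adjusted p = 0.00205) was lower and COX5B (0.92, adjusted p = 0.0428) higher than in wild type, where without wild type replicate 1 there were 4 higher and 1 lower and with any other array removed COX5B was not called.

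**Figure D4:**
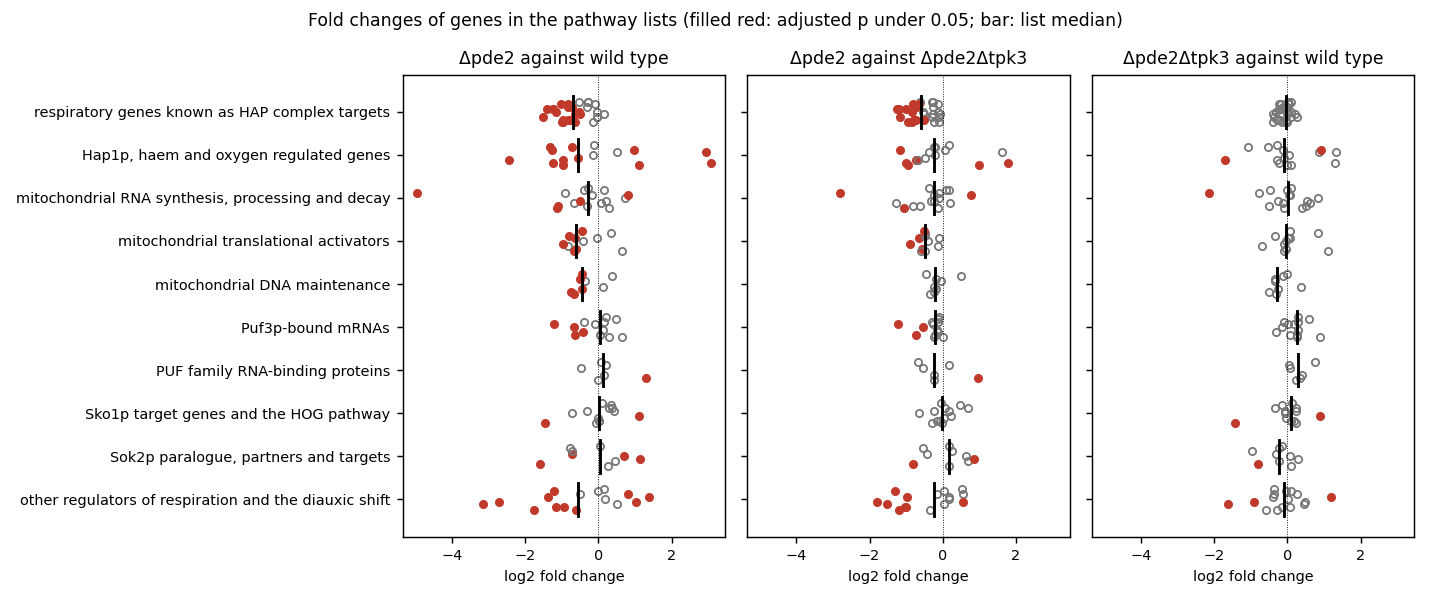
Log2 fold change (horizontal axis) of every measured gene of the pathway lists, 1 row per list and 1 panel per comparison, with bars at list medians and filled red symbols at adjusted p under 0.05. The respiratory targets of the HAP complex have medians of -0.68, -0.59 and -0.04 from left to right.

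RPO41 and NCA3 were the lower genes of the mitochondrial RNA machinery in both comparisons of Δpde2 cells. Of 16 genes for mitochondrial RNA synthesis, processing and decay, RPO41 and MTF1 included, 4 were lower and 1 higher in Δpde2 cells than in the wild type and 11 did not pass (median -0.29). Over all genes 41.4% were called in this comparison (21.9% lower and 19.5% higher), so the list was called no more often than the background. Beside RPO41 the lower ones were NCA3 (-4.94, adjusted p = 0.000148), NCA2 (-1.11, adjusted p = 0.00627), both named for control of the mitochondrial ATP synthase mRNA, and SUV3 (-0.49, adjusted p = 0.0379), a helicase of the RNA-degrading complex. CBP2, a splicing factor for a cytochrome b intron, was higher against both wild type (0.81, adjusted p = 0.00353) and Δpde2Δtpk3 cells (0.76, adjusted p = 0.0229). Between the mutants RPO41 and NCA3 were lower, and NCA3 alone was lower in Δpde2Δtpk3 than in wild type (-2.13, adjusted p = 0.0228), a call lost without wild type replicate 3, Δpde2 replicate 1 or 3 or either Δpde2Δtpk3 array. Without wild type replicate 1, 8 were lower against wild type and 4 between the mutants, and CBP2 was not called between the mutants with any mutant array removed.

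Of 11 translational activators of mitochondrial mRNAs, 6 were lower and none higher in Δpde2 cells than in the wild type (median -0.60), led by CBS2 for cytochrome b (-0.97, adjusted p = 0.00233) and PET54 for COX3 (-0.80, adjusted p = 0.00456). There were 9 lower without wild type replicate 1. With all arrays 21.9% of all genes were lower against wild type and 7.41% between the mutants, which also stands beside the DNA maintenance genes below. Between the mutants CBS2 (-0.89, adjusted p = 0.0184), PET111 (-0.64, adjusted p = 0.0372), PET494 and MSS51 were lower. These 4 became 9 without wild type replicate 1, 1 and 2 without wild type replicates 2 and 3, and 0 with any Δpde2 array removed. Of all 5449 genes 1133, 327, 289 and 38 to 91 were lower in those fits. Removing a Δpde2Δtpk3 array, which keeps 1 array of that strain, also left fewer. Of 8 genes for mitochondrial DNA maintenance, 5 were lower against wild type (median -0.44), with MGM101 (-0.75, adjusted p = 0.00286) and the polymerase gene MIP1 (-0.67, adjusted p = 0.0327) the most changed, and none passed between the mutants. Leaving out wild type replicate 3 or Δpde2 replicate 2 left 1 lower, leaving out Δpde2 replicate 1 or 3 left 2, and leaving out wild type replicate 2 left 3. Over all 5449 genes these fits called 790 to 1177 lower. With wild type replicate 1 left out, 6 were lower and 1 higher in Δpde2 cells against wild type, 1 was lower and 1 higher between the mutants, and 3 were lower in Δpde2Δtpk3 cells against wild type. The 8 mitochondrially encoded genes of the list, which Rpo41p transcribes, had no probe set paired with them in the annotation used and were not analysed here.

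PUF3 was the 1 member of its family called with all arrays, while without wild type replicate 1 a further member was called lower in both comparisons of Δpde2 cells. Of the 6 genes for pumilio-type RNA-binding proteins, JSN1, PUF2, PUF4, MPT5 and PUF6 did not pass in any comparison with all arrays. Their log2 fold changes in Δpde2 against wild type cells ran from -0.47 (PUF2, adjusted p = 0.0711) to 0.22 (PUF4, adjusted p = 0.123). Of 13 genes whose mRNAs are known to be bound by Puf3p, 4 were lower and none higher against wild type. Over all genes 41.4% were called there (21.9% lower and 19.5% higher), so 4 of 13 called is not above the background. The 4 were CYT2, the cytochrome c1 haem lyase (-1.20, adjusted p = 0.000791), IMG1 (-0.67, adjusted p = 0.00355), TUF1, the mitochondrial elongation factor (-0.64, adjusted p = 0.00403), and OXA1 (-0.42, adjusted p = 0.039). The median of the list was 0.05 beside 0.03 over all genes against wild type, where members went both ways, and -0.22 beside 0.02 between the mutants. COX17, a copper chaperone and the best studied Puf3p target, had a log2 fold change of 0.66 and did not pass (adjusted p = 0.306). Between the mutants CYT2 (-1.22, adjusted p = 0.0073), TUF1 and IMG1 were lower. With a Δpde2 array removed 0 or 1 of the 13 was called there, beside 53 to 129 of all 5449 genes. Removing a Δpde2Δtpk3 array, which keeps 1 array of that strain, also left fewer. In both comparisons of Δpde2 cells 4 were lower without wild type replicate 1.

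Of 13 target genes of Sko1p and members of the HOG pathway, HOG1 itself was higher (1.12, adjusted p = 0.000417) and GRE2, a stress-induced reductase gene repressed by Sko1p, lower (-1.45, adjusted p = 0.000419) in Δpde2 cells than in the wild type. The other 11 were not called there, while 41.4% of all genes were. HOG1 and GRE2 were called in Δpde2Δtpk3 cells as well (0.89, adjusted p = 0.0157, and -1.42, adjusted p = 0.00765), and none of the 13 passed between the mutants. Without wild type replicate 1, 5 were higher and 2 lower in Δpde2 against wild type cells, and 2 higher and 1 lower between the mutants. In Δpde2Δtpk3 cells HOG1 was not called with wild type replicate 3 or any mutant array removed, and GRE2 was not called without Δpde2Δtpk3 replicate 2. Of 9 genes linked to Sok2p, STE12 (1.15, adjusted p = 0.00149) and FLO8 (0.70, adjusted p = 0.0102), activators of filamentous growth, were higher and ASH1 (-1.60, adjusted p = 0.000151) and SWI5 (-0.73, adjusted p = 0.00233) lower in Δpde2 cells than in the wild type. These 4 of 9 compare with 41.4% of all genes called. Between the mutants STE12 was higher (0.85, adjusted p = 0.0239) and ASH1 lower (-0.80, adjusted p = 0.00978), and STE12 was not called with any mutant array removed. Removing wild type replicate 1 gave 3 higher and 3 lower against wild type and 2 higher and 3 lower between the mutants. ASH1 was also lower in Δpde2Δtpk3 cells against wild type (-0.80, adjusted p = 0.0194), though not with wild type replicate 3 or any mutant array removed. PHD1, the paralogue of SOK2, did not pass in any comparison (0.26 against wild type, adjusted p = 0.149).

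Of 16 other regulators of respiration and the diauxic shift, 8 were lower and 3 higher in Δpde2 cells than in the wild type (median -0.56). The shares over all genes were 21.9% lower and 19.5% higher. XBP1, a repressor induced by stress and starvation (-3.15, adjusted p = 0.000151), MBR1 (-2.71, adjusted p = 8.27e-05) and CAT8, the activator of gluconeogenic genes (-1.76, adjusted p = 0.00154), fell. MSN4, a stress activator (1.39, adjusted p = 0.00156), rose, while MSN2 was lower (-0.61, adjusted p = 0.0333). Between the mutants 7 were lower, with MBR1 (-1.80, adjusted p = 0.00296), XBP1 (-1.52, adjusted p = 0.0104) and USV1 (-1.31, adjusted p = 0.0138) the most changed, and MKS1, a regulator of the retrograde pathway, was higher (0.55, adjusted p = 0.0384). No gene of the list was called higher between the mutants with wild type replicate 2 or 3 or any mutant array removed. In Δpde2Δtpk3 cells XBP1 (-1.63, adjusted p = 0.0175) and MBR1 (-0.91, adjusted p = 0.0202) were lower and MSN4 (1.21, adjusted p = 0.0355) higher than in wild type. Leaving out any Δpde2 array left 1 or 2 of the 7 lower between the mutants, where 53 to 129 of all 5449 genes were then called. None of the calls of Δpde2Δtpk3 against wild type cells remained with wild type replicate 3 or any Δpde2 array removed. Those fits called 25 to 35 of all genes. Leaving out a Δpde2Δtpk3 array, which keeps 1 array of that strain, also left fewer in both comparisons. Leaving out wild type replicate 1 gave 4 higher and 9 lower in Δpde2 cells against wild type, 3 higher and 7 lower between the mutants, and 3 higher and 4 lower in Δpde2Δtpk3 cells against wild type.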

How the data were processed

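Total RNA from 3 strains was hybridised to 8 Affymetrix Yeast Genome 2.0 arrays. The values deposited by the authors are on a log2 scale, as read from their range. Quality control with dChip and gene tests with limma are named in the methods, and the normalization is not given in the sources used here. First quartiles of the arrays differed by 0.386, above the 0.1 allowed, so values were quantile normalized in limma 3.58.1 (R 4.3.3). Of 5814 probe sets, 5498 pair with 1 gene, 316 with none (left out), and 47 genes with several probe sets took the one with the highest mean. One limma fit of the 3 strains (5 residual degrees of freedom) gave the 3 comparisons, with p-values adjusted over 5449 genes at a threshold of 0.05. The code was tested on simulated data, where 63.3% of genes changed by a log2 fold of 1 and 88.3% of those changed by 2 were recovered for Δpde2 against wild type (5449 genes simulated, most of them unchanged). Far fewer genes were changed there than were called in these data, so these shares do not give the sensitivity here. Lists came from general knowledge of yeast biology. Members and lists were chosen with earlier results of these data known. Of each list the called genes with the largest changes are named, and others where their role bears on a member or a named gene, after their values were seen. For the 4 called members the 3 nearest genes are named. Alternatives were median centring, deposited values, a filter on low signal, the mean of probe sets, fewer arrays, other moderation, array weights, a replicate block and each array left out.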

Additional observations from a re-analysis of the deposited data

How the results depend on the processing

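The 10 genes gave 501 log2 fold changes under other settings, of which 445 kept direction and side of the threshold, 20 lost a call, 20 gained one and 16 changed sign. Where causes are not named they were not tested. Array weights called 3901 genes in Δpde2 against wild type (2257 with equal weights) with 7 of the 10, 1772 between the mutants (707) and 739 in Δpde2Δtpk3 against wild type (148). Fitting only the arrays compared called 2310 between the mutants, 5 of the 10 among them, and 10 in Δpde2Δtpk3 against wild type. Without wild type replicate 1 before normalization the counts were 2430 and 979 in these comparisons, and 7, 5 and 1 of the 10 genes were called in the 3 comparisons. Leaving out each array gave 1392 to 3313, 53 to 2431 and 7 to 973 genes, and 2 to 7, 1 to 5 and 0 to 1 of the 10. Replicate numbers are shared by label alone, and deviations of same-numbered arrays correlated between -0.0915 and 0.194. The replicate block called 1887 genes and 4 of the 10 in Δpde2 against wild type, 1 gene and 0 of the 10 between the mutants (RPO41 adjusted p = 0.0599, SOK2 0.0631, PUF3 0.105) and 5 genes in Δpde2Δtpk3 against wild type, where HAP1 turned to 0.0403 with the block.

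Signs turned in small log2 fold changes. In Δpde2 against wild type, TPK3 was 0.15 with median centring, 0.20 as deposited and -0.119 to 0.0164 with arrays left out, HAP5 was 0.00215 with array weights, and HAP4 ran from -0.565 to 0.0971 with arrays left out. Between the mutants SKO1 was 0.0164 as deposited and -0.0877 to 0.0652 with arrays left out, where HAP2 ran from -0.401 to 0.058 and PDE2 from -0.109 to 0.169. In Δpde2Δtpk3 against wild type HAP4 was -0.0314 and MTF1 -0.0716 with array weights, and -0.106 and -0.0417 without wild type replicate 1 before normalization. With arrays left out HAP4 ran from -0.103 to 0.559, MTF1 from -0.0429 to 0.152 and HAP1 from -0.254 to 0.185. PUF3, SKO1 and MTF1 were among the lowest 33.3% by mean signal and have no value under that filter.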
